A study of Danio rerio with 8 samples.

Results

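The genes described here are the kinesin motor genes of the zebrafish, compared between LIS1 morphant and control larvae. They were taken as all genes whose symbol starts with kif and a digit, found by matching the accession of each array probe to the transcripts of a RefSeq gene table. Of 43 such genes in that table, 15 had a probe matched in this way, with 34 matched probes in all. Only 25069 of the 43603 probes matched a symbol, so unmatched probes may belong to other kinesin genes or to these 15. For all 15, a probe gave signal well above background in each pool of either group, so that none passed through 1 group alone, and 31 of the 34 probes were kept. They make up 15 of the 23400 genes tested. Of those 23400, 12142 carry a symbol, and the others are counted under the systematic name of their probe. Several such names may belong to 1 gene, and every share of all genes tested includes them. The other 28 kinesin genes of the table, and the kifc genes and cenpe, whose names follow another pattern, are not members.

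LIS1 morphants were larvae of the WIK background in which LIS1 had been knocked down with a morpholino, collected at 4 days post fertilization and picked for a slight phenotype and for seizures. Controls were WT larvae of the same background and age, from the same egg pools, and the labels do not say whether they were injected. Each group had 4 samples, each a pool of 10 whole larvae on its own 1-colour array. A morpholino acts transiently, and a pool of whole larvae mixes all tissues, so fewer cells of a type and less RNA per cell cannot be told apart in these values.

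Kinesins are motor proteins that walk along microtubules, in most families toward the plus end, and so carry cargo away from the cell centre. LIS1 acts on dynein, the motor that moves the opposite way, and neurons depend on both motors for axonal transport and migration. Other kinesins build the mitotic spindle, drive cytokinesis, carry material into cilia or take microtubules apart at their ends. The level of a probe is its log2 signal after its array's 75th percentile has been subtracted, and differences are LIS1 morphant minus control on that scale. They compare a probe with itself and not with other probes. No probe sequence or kinesin sequence is shown here.

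The arrays differed in overall signal. The 75th percentile of the signal averaged 1599 ± 153 on morphant arrays and 1237 ± 178 on control arrays (SD, n = 4 each; two-sided exact permutation p = 0.0571), whereas the spike-in signal averaged 1630 ± 129 on morphant arrays and 2106 ± 271 on control arrays (SD, n = 4 each; exact permutation p = 0.0571). Scaling to the spike-ins instead of the percentile moved the median difference of all genes to 0.68, against -0.06, so every direction below is relative to the 75th percentile of the array. Between 83.8% and 88.8% of the spots of an array were well above background. The brightest probes of the zebrafish LIS1 genes pafah1b1a and pafah1b1b differed by 0.07 (limma adjusted p = 0.794) and -0.03 (limma adjusted p = 0.944). The labels do not say which step the morpholino blocks, so this checks neither the knockdown nor the labels. Slide, scan and replicate number coincide, and each of the 4 slides held a morphant and a control array.

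In the limma fit across all genes, with the brightest probe standing for each gene, 2 of the 15 kinesin genes passed an adjusted p of 0.05, kif18a and kif20a. Both were lower in morphants, and 13 genes did not pass. Of these 13, 4 had an unadjusted p under 0.05 and 4 a less bright probe that passed. An unadjusted p under 0.05 was found for 6 of the 15 in all, and for 11313 of all 23400 genes tested. The 2 genes that passed are 13.3% of the members, where 38.3% of all genes tested passed, 21.9% as lower and 16.4% as higher. The difference of these shares was not tested. The 15 differences ran from -0.68 for kif3b to 0.36 for kif11, with a median of -0.13. On the brightest probe no member reached a 2-fold change, whereas 17.8% of all genes tested did. Less bright probes of kif4 and kif2a did reach it, at -1.53 and -1.11. The median size of the difference, with the sign left out, was 0.21 among the kinesin genes and 0.41 among all genes tested. Their median standard error was 0.13, against 0.18 for all genes tested. The groups did not overlap for 5 of the 15, with 2 higher and 3 lower in morphants, and this held for 38.1% of all genes. Relative to the spike-ins all 15 differences lay above 0, 9 of them past the threshold, where 58.4% of all genes passed. After subtraction of the median of all genes their median was -0.07. It is the same with percentile scaling by arithmetic, because both scalings subtract a constant from each array. Values given relative to the median of all genes therefore do not check the calls.

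The share of all genes that passed also moved with other settings, against which the kinesin counts are to be read. It was 11.5% with normexp background correction and percentile scaling, where 0 of the 15 kinesin genes passed, and 36.6% with normexp and quantile normalization, where 2 did. With arrays scaled to their median it was 38.4% beside 3 kinesin genes, and with the probes of a gene averaged 39.1% beside 4. The kinesin count stayed at 2 with no filter on dim probes (31.8% of all genes), with probes above background on all 8 arrays (37.5%), in the deposited value table (37.7%) and with replicate number as a block (44.3%). Without morphant replicates 1, 2, 3 and 4 in turn the shares were 30.9%, 31.6%, 35.2% and 34.1%, beside 2, 3, 2 and 2 kinesin genes. Without control replicates 1, 2, 3 and 4 they were 38%, 29%, 31.9% and 35.7%, beside 3, 2, 2 and 3 kinesin genes.

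**Figure D1:**
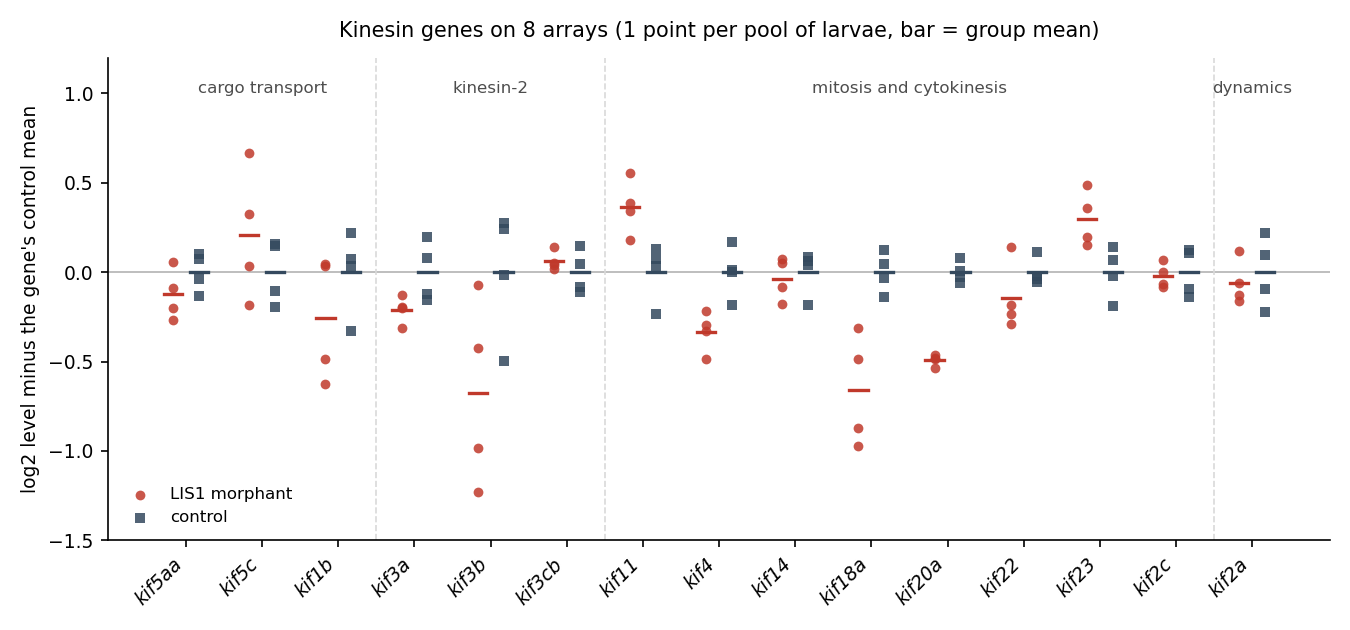
Log2 level of each kinesin gene on each array minus the control mean of that gene (y axis), for the brightest probe of each gene (x axis). Red circles are the 4 LIS1 morphant pools, dark squares the 4 control pools, bars the group means, and dashed lines separate the roles. The morphant points of kif18a and kif20a lie below all control points, those of kif4 do too without passing the test, and those of kif11 and kif23 lie above.

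Both genes called on their brightest probe were among the 8 mitotic and cytokinetic kinesins. That is 25% of this role, below the 38.3% of all genes tested, so the count is no result about the role. Outside it, less bright probes of kif3a, kif5aa and kif2a also fell. The gene kif20a encodes the motor that carries the chromosomal passenger complex to the central spindle at the end of mitosis. It read -2.58, -2.64, -2.57 and -2.59 in the 4 morphant pools, against -2.02, -2.13, -2.10 and -2.16 in the 4 control pools. The 4 morphant values lay close together and below every control. The fall of 0.49 (SE 0.09, limma adjusted p = 0.00444) is 1.40-fold and was seen on 4 of 4 slides, at -0.56, -0.51, -0.47 and -0.43. A second probe of the gene differed by -0.36 on 4 of 4 slides and did not pass (adjusted p = 0.148 over all probes).

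The gene kif18a encodes a motor that walks to microtubule plus ends and dampens the movements of chromosomes before they separate. Its level was -1.96, -2.13, -2.62 and -2.52 in the morphant pools, against -1.52, -1.60, -1.78 and -1.68 in the control pools. Again no morphant value reached a control value, with morphant pools 3 and 4 the lowest. The level fell by 0.66 (SE 0.17, limma adjusted p = 0.0141), or 1.58-fold, and the differences on the 4 slides were -0.43, -0.53, -0.84 and -0.84. The other probe of kif18a was not well above background on any of the 8 arrays. Neither gene was called when normexp background correction with an offset of 50 preceded the percentile scaling. The limma adjusted p-values were then 0.481 for kif20a, at -0.29, and 0.274 for kif18a, at -0.50. Scaled to the spike-ins, kif20a differed by 0.25 and kif18a by 0.08 without passing. Relative to the median of all genes this is -0.43 and -0.60, values that the change of scaling cannot move.

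**Figure D2:**
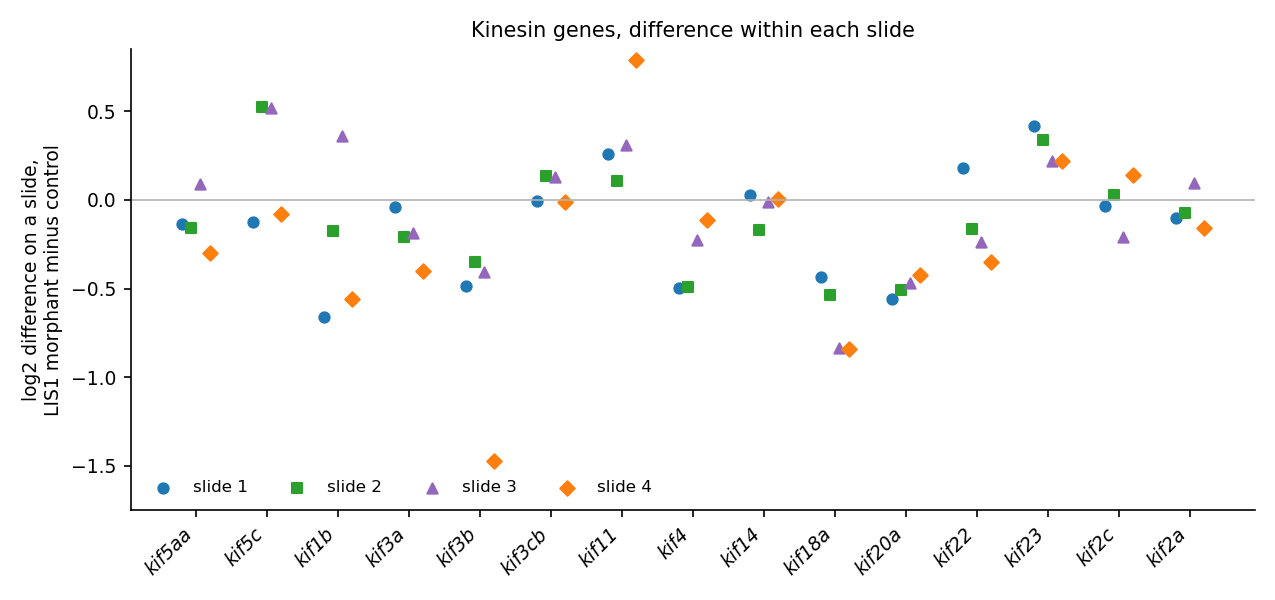
Difference of each kinesin gene on each of the 4 slides (y axis, log2, LIS1 morphant minus control array of the same slide), for the brightest probe of each gene (x axis). Marker shape and colour give the slide. All 4 slides agree in sign for kif3a, kif3b, kif4, kif11, kif18a, kif20a and kif23, and for kif3b slide 4 lies far below the others at -1.47.

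Among the other mitotic kinesins, kif11 and kif23 were the members with values above the controls. The product of kif11 pushes the spindle poles apart. It read 0.95, 0.74, 0.91 and 1.12 in morphant pools, against 0.69, 0.64, 0.60 and 0.33 in control pools, without overlap. The difference of 0.36 had a standard error of 0.13 and a 95% confidence interval from 0.07 to 0.66, and it did not pass over all genes (limma adjusted p = 0.0543). It passed with arrays scaled to their median, at 0.44 (adjusted p = 0.0409), and with spike-in scaling, at 1.104 (adjusted p = 0.00158), which is 0.42 relative to the median of all genes. The product of kif23 bundles microtubules at the midbody as part of centralspindlin. Its values were 0.91, 0.58, 0.62 and 0.78 in morphant pools and 0.50, 0.24, 0.40 and 0.56 in control pools. They did not overlap, yet the lowest morphant and the highest control value nearly touched. Its difference of 0.30 did not pass (adjusted p = 0.0923) except with spike-in scaling, at 1.04 (adjusted p = 0.00113) or 0.36 relative to the median of all genes, and its other kept probes differed by 0.10 and 0.04.

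The chromokinesin gene kif4, whose product binds chromosome arms and shortens the central spindle, gave different answers with different probes. The brightest probe read -0.09, -0.25, 0.02 and -0.06 in morphant pools, against 0.41, 0.24, 0.25 and 0.05 in control pools. The groups did not overlap, and the difference of -0.33 did not pass (limma adjusted p = 0.0552) except without control replicate 4 (-0.39, adjusted p = 0.0355) and with the probes of a gene averaged (-0.49, adjusted p = 0.0175). The second probe read -2.62, -3.01, -2.89 and -3.24 in morphant pools and -1.67, -1.40, -1.43 and -1.15 in control pools. This probe fell by 1.53 (SE 0.17, adjusted p = 0.00032 over all probes), with all 4 morphant values far below the controls. The third probe differed by 0.38 and did not pass (adjusted p = 0.326 over all probes). All 3 probes carry the same transcript accession, as do the probes of kif2a, those of kif3a and those of kif5aa.

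The remaining mitotic members showed no difference past the threshold on any kept probe. The genes are kif14, whose product acts in cytokinesis, kif22, a chromokinesin gene, and kif2c, whose product takes apart microtubules at kinetochores. Their brightest probes differed by -0.04, -0.14 and -0.02, with 95% confidence intervals from -0.30 to 0.23, from -0.43 to 0.14 and from -0.27 to 0.23. Their other kept probes lay between -0.12 for kif22 and 0.30 for kif2c. A further probe of kif23 and of kif2c was not well above background on all arrays of a group and was left out.

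Kinesin-2, a motor of intraflagellar transport, is built from the products of kif3a and kif3b, with the kif3c product as an alternative partner of Kif3a in neurons. The brightest probe of kif3a read 1.08, 1.15, 0.97 and 1.08 in morphant pools, against 1.12, 1.36, 1.15 and 1.48 in control pools. The groups overlapped, and the difference of -0.21 did not pass (limma adjusted p = 0.194). Its second probe fell by 0.46 (adjusted p = 0.0381 over all probes). The third probe read -0.60, -0.62, -0.43 and -0.56 in morphant pools, against -0.37, 0.21, -0.07 and 0.43 in control pools. These did not overlap, and this probe fell by 0.60 (SE 0.18, adjusted p = 0.0249 over all probes). With its 3 probes averaged, kif3a differed by -0.43 (adjusted p = 0.0394). Each of the 3 probes was lower in morphants on 4 of 4 slides.

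The single probe of kif3b read -4.92, -4.01, -4.37 and -5.17 in morphant pools, against -4.44, -3.66, -3.96 and -3.70 in control pools. The values overlapped and spread more than those of the other members, at an SD of 0.52 in morphants and 0.36 in controls. Its difference of -0.68, in size the largest of the 15, had a standard error of 0.28 and did not pass (limma adjusted p = 0.0869). It passed without morphant replicate 2 (-0.88, adjusted p = 0.0356) and without control replicate 1 (-0.84, adjusted p = 0.0476). After normexp and percentile scaling it was -0.15. For kif3cb the brightest probe differed by 0.06 and the other by -0.36, and neither passed.

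None of the 3 cargo carriers of axons passed the limma test on its brightest probe, where 38.3% of all genes tested passed. At an unadjusted p under 0.05 it was also 0 of 3, where 11313 of all 23400 genes tested passed. With only 3 genes, these counts are no result about the carriers. The kinesin-1 heavy chain gene kif5aa read 3.75, 3.93, 4.08 and 3.82 in morphant pools, against 3.89, 4.09, 3.98 and 4.12 in control pools, with overlap. The difference of -0.13 had a 95% confidence interval from -0.39 to 0.14 (limma adjusted p = 0.424). A further probe at -0.15 also did not pass. The remaining kif5aa probe read -4.57, -4.39, -4.50 and -4.71 in morphant pools, against -4.17, -3.89, -3.77 and -4.24 in control pools. That probe showed no overlap and a fall of 0.53 (adjusted p = 0.0197 over all probes). The neuronal kinesin-1 gene kif5c read -5.66, -5.02, -5.37 and -5.87 in morphant pools and -5.54, -5.54, -5.89 and -5.80 in control pools. Its difference of 0.21 did not pass (limma adjusted p = 0.419), and it was above 0 on 2 of 4 slides. The gene kif1b encodes a kinesin-3 motor that carries mitochondria and precursors of synaptic vesicles. It read -5.28, -4.61, -4.62 and -5.14 in morphant pools and -4.62, -4.43, -4.98 and -4.58 in control pools, a difference of -0.26 that did not pass (limma adjusted p = 0.328). The single matched probes of kif5c and kif1b were dim, yet well above background on every array. Their 95% confidence intervals ran from -0.23 to 0.65 for kif5c and from -0.71 to 0.19 for kif1b.

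The gene kif2a, whose product takes apart microtubule ends and restrains the growth of axon branches, also gave different answers with different probes. Its brightest probe differed by -0.06, with a 95% confidence interval from -0.36 to 0.24 (limma adjusted p = 0.755), and a second probe by -0.29 without passing. The third probe read -5.06, -5.51, -4.96 and -5.19 in morphant pools, against -3.99, -4.30, -4.48 and -3.51 in control pools. The groups were apart, and this probe fell by 1.11 (SE 0.22, adjusted p = 0.00504 over all probes). It was a dim probe, with mean levels of -5.18 in morphants and -4.07 in controls, yet well above background on every array. The brightest probe had means of 2.57 and 2.63.

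Over all kept kinesin probes, 7 of 31 passed when each probe was tested by itself, all of them lower in morphants, and they belong to 6 genes. That is 22.6%, where 38.5% of all probes passed, 21.1% as lower and 17.4% as higher. No gene had probes that passed in opposite directions. For 4 genes, kif2a, kif3a, kif4 and kif5aa, a less bright probe passed and the brightest did not. Of the 10 genes with more than 1 kept probe, 5 had probes with differences of both signs. The probe differences ran from -1.53 to 0.38 with a median of -0.14. What the probes of a gene detect besides the shared accession was not tested.

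**Figure D3:**
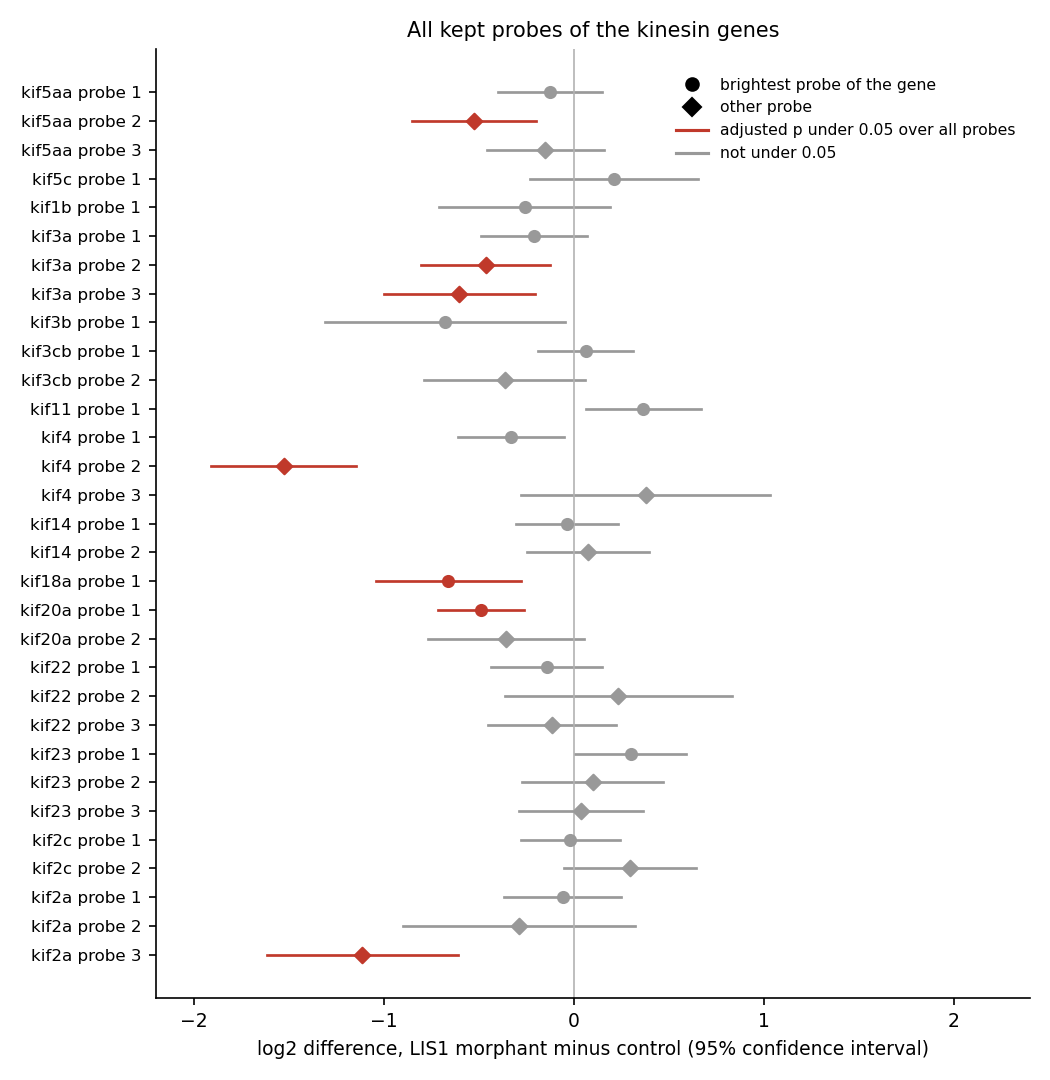
Log2 difference of every kept kinesin probe (x axis, LIS1 morphant minus control) with its 95% confidence interval from the fit of all probes, ordered by gene (y axis). Circles are the brightest probe of a gene and diamonds the others, and red marks an adjusted p under 0.05 over all probes. The 7 red intervals all lie below 0, and kif4 probe 2 is the lowest at -1.53.

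Kinesin-1 is completed by light chains and by adaptors that link it to cargo. Of 25 measured genes of a list of light chains, adaptors and other kinesins, 7 fell and 1 rose, with a median difference of -0.03, against -0.06 for all genes tested. These 8 are 32% of the list, below the 38.3% of all genes that passed, so the count is no result about the list. The calsyntenin genes clstn2a and clstn1, whose products dock vesicles to the light chains, fell by 1.59 and 1.51 (limma adjusted p = 0.00178 and 0.000826). Of the 5 measured light chain genes, klc1a, klc3 and klc2 fell by 0.97, 0.87 and 0.42 (limma adjusted p = 0.00691, 0.00908 and 0.0384). The others did not pass. Among all genes tested 21.9% passed as lower. With only 5 genes, picked out of the list, the count is no result about the light chains. The difference of klc1b was 0.19 (limma adjusted p = 0.283), higher on 4 of 4 slides. That of klc4 was 0.61 (limma adjusted p = 0.277), fitted without 1 morphant array whose spot was dropped. Only 1 control array was well above background for klc4, so it was kept through the morphant group alone, and its sign carries little weight. The gene kifbp, whose product binds kinesin motor domains and keeps them off microtubules, rose by 0.61 (limma adjusted p = 0.0158). The heavy chain genes kif5aa and kif5c were not called on their brightest probes, and no difference between heavy and light chains was tested.

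Among partners of the mitotic kinesins 1 of 14 was higher and 1 lower (14.3% in all, against 38.3% of all genes), with a median of -0.01. The gene aurkb, the kinase of the chromosomal passenger complex that Kif20a carries, fell by 0.50 (limma adjusted p = 0.0141), and ect2, a cytokinesis factor bound by centralspindlin, rose by 0.58 (limma adjusted p = 0.00876). Beside the mitotic kinesins, markers of proliferating cells had a median of -0.16, with 1 of 13 higher and 2 lower (23.1% in all, below the 38.3% of all genes). The summed level of these markers was 55.0 to 72.0 on morphant arrays and 69.4 to 84.7 on control arrays, in multiples of the 75th percentile signal. The sum weighs bright members such as the mcm genes most, and the members went both ways. Of the 13 differences 9 lay below 0 and 4 above, with mcm6 (-0.80) and mcm2 (-0.54) called lower and cdk1 (0.37) called higher. The part of the proliferation markers in the falls of kif18a and kif20a was not tested.

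A list of genes of intraflagellar transport, which kinesin-2 helps to drive, also held other cilium genes and the signalling genes gli1, gli2a and sufu. It had 7 of 27 measured members, out of 33 listed, higher, sufu among them, 5 lower and a median of 0.08. These 12 are 44.4% of the list, close to the 38.3% of all genes, which also passed in both directions. The transport genes ift74 and ift81 fell by 1.43 and 1.39 (limma adjusted p = 0.000278 and 0.00101), while bbs7 and ift20 rose by 1.05 and 0.93 (limma adjusted p = 0.00307 and 0.00215). Beside kif3a and kif3b, markers of ciliated cells went opposite ways. Of 8 measured markers of motile ciliated cells, out of 15 listed, 6 rose (75%, against 16.4% of all genes) and none fell. Their summed level was 3.57 to 3.86 on morphant arrays, against 1.28 to 1.48 on control arrays. The counts and the sum include tekt2, which rose by 2.51, and rsph9, which did not pass. Both were well above background on only 3 control arrays, so they were kept through the morphant group alone, where they read higher. Of 13 photoreceptor markers, genes of cells with a modified cilium, 7 fell (53.8%, against 21.9% of all genes) and none rose. Their summed level was 193 to 390 on morphant arrays, against 428 to 556 on control arrays. The part of both sets of markers in the kinesin-2 values was not tested. Neuron markers, set beside the axonal kinesins, had 1 of 14 higher and 2 lower (21.4% in all, below the 38.3% of all genes) and a median of -0.06. Their summed levels were 95.6 to 110.2 on morphant arrays and 104.4 to 111.8 on control arrays. Skeletal muscle markers had 1 of 11 higher and 1 lower (18.2% in all, also below that share). All counts of these lists cover measured genes only, and listed genes without a kept probe matched to their symbol are left out. Every measured gene of these lists was well above background on at least 1 array of each group.

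**Figure D4:**
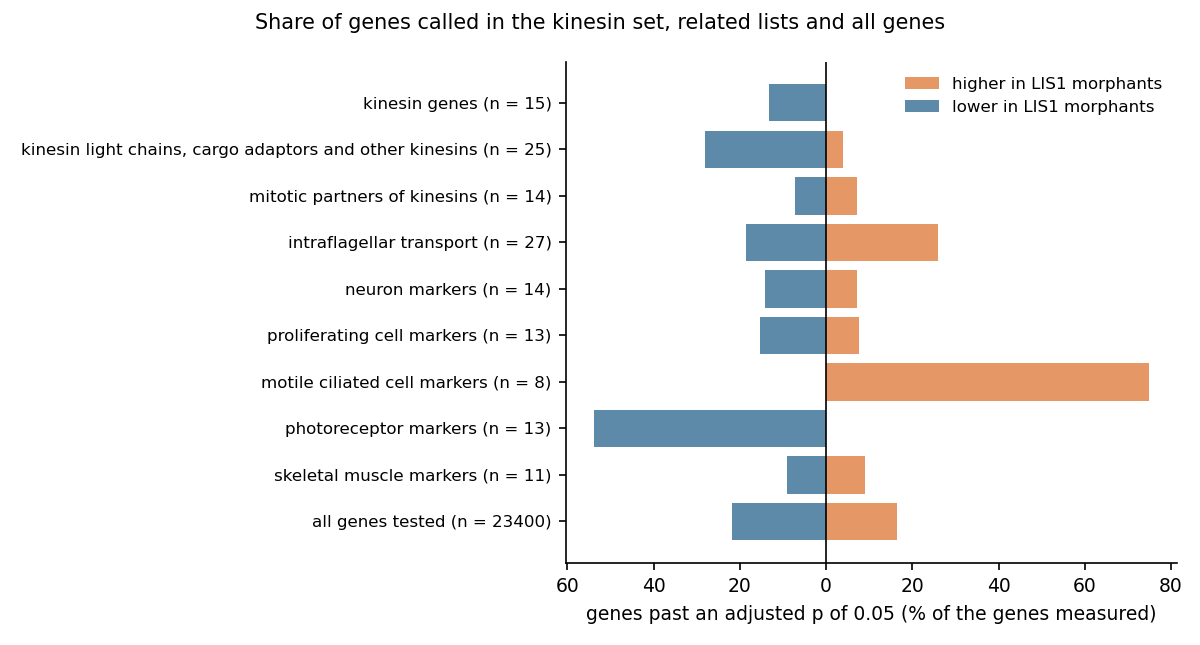
Share of measured genes past a limma adjusted p of 0.05 (x axis, %), higher in LIS1 morphants to the right and lower to the left, for the kinesin genes, related gene lists and all genes tested (y axis, with the number of genes). The kinesin bar reaches 13.3%, all of it on the lower side, while all genes reach 21.9% lower and 16.4% higher.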

How the data were processed

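Cy3-labelled RNA of 8 pools of larvae was measured on Agilent arrays of 1 colour. The labels name mouse arrays, whereas the file headers give a zebrafish design and the build danRer6. Per the file headers, the deposited scanner files come from Feature Extraction 10.7.3.1 and hold intensity values: a background-subtracted processed signal and raw median spot and background signals, with no normalization across arrays. Values in the deposited table are log2, and how the authors made them is not given in the sources used here. For 6 of its 8 columns the matching scanner file belongs to a different replicate of that group.

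From each log2 processed signal the array's 75th percentile was subtracted. Spots flagged as outliers and all control spots were dropped, spots of a probe were averaged, and a probe was kept if well above background on all 4 arrays of a group (36707 of 43603). Probes were named by accession through a RefSeq table of the assembly GRCz12tu (25069 matched a symbol). The brightest kept probe stood for a gene. The comparison used limma 3.58.1 (R 4.3.3), with Benjamini-Hochberg adjustment over all 23400 genes, or over all 36707 probes where said, and a threshold of 0.05. The test was also run on simulated data with independent arrays and few changed genes. The real arrays share slides and many genes were called, so that run does not check the test under these conditions. The labels do not say that the pools were separate clutches, so p-values measure the spread between pools. The number of arrays limits the precision.

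Per-array values are given for members past the threshold, and besides these for probes and genes chosen after their values were seen. Up to 2 members per list and direction are named, plus the called light chain genes. The members and lists were chosen with earlier results of these data known. Normexp was run on the median spot signal, not on the mean signal as planned. An offset of 50 was added to every corrected signal, so these settings change the background correction and add a constant at once. The labels give shared replicate numbers, and the deviations of arrays of the same number correlated at 0.454, 0.159, 0.322 and 0.283. This meets the criterion for pairing (every correlation above 0.1). For 7 of the 8 arrays the best partner in the other group had the same number. The main fit did not use the pairing, so its standard errors and p-values are those of an unpaired comparison. The fit with replicate number as a block is given as an alternative.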

Additional observations from a re-analysis of the deposited data

Results flagged for a closer look

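In each kept kinesin probe the 4 arrays of a group were searched for a value that stood apart from the other 3, by Dixon's test at the 95% level. Of 62 groups of arrays, 4 had such a value, and chance flags about 1 in 20. The brightest probe of kif14 read -1.71 in control replicate 4, where the other controls lay between -1.49 and -1.45. The second probe of kif14 read -3.72 in morphant replicate 3, against -3.27 to -3.20 in the other morphants. The second probe of kif2a read 0.67 in morphant replicate 4, with the other morphants at 0.26 to 0.29. The third probe of kif4 read -5.14 in control replicate 1, with the other controls at -6.02 to -5.91. None of these probes passed the test between groups.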

How the results depend on the processing

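The 2 calls, kif18a and kif20a, held in 16 of 18 alternatives each and were lost with normexp and percentile scaling and with spike-in scaling. The count overstates how far they were tested. Both changes of filter, the replicate block and the test of each probe left the differences at -0.66 and -0.49. Averaging the probes of a gene also left kif18a at -0.66, because it has a single kept probe. Fits without an array share the other arrays. In the replicate block 2 kinesin genes were called (limma adjusted p = 0.00954 for kif18a and 0.0108 for kif20a) and no kinesin call changed. Normexp with percentile scaling left 0 kinesin calls (0 also at an unadjusted p under 0.05) and 2681 calls among all genes, against 2 and 8963, with kif18a at -0.50, kif20a at -0.29 and kif1b at 0.0143. Spike-in scaling gave 9 kinesin calls, all higher, and 13660 among all genes, of which 7.72% were lower against 57.1% with percentile scaling. The kinesin median was then 0.61, and the sign turned for kif5aa (0.61), kif2a (0.68), kif3a (0.53), kif4 (0.41), kif22 (0.60), kif2c (0.72), kif14 (0.70), kif18a (0.0786), kif20a (0.25), kif3b (0.0607) and kif1b (0.48). Averaging the probes of a gene gave 4 calls and a median of -0.26, with kif14 at 0.0182, kif2c at 0.14 and kif3cb at -0.15. Testing each probe gave 7 of 31 kinesin probes and 14128 of all probes. Median scaling moved the kinesin median to -0.0517 and turned kif2a (0.0148), kif2c (0.0538) and kif14 (0.0371), and normexp with quantile normalization gave a median of -0.0546. Leaving out each array in turn gave 2 to 3 kinesin calls, 6797 to 8898 calls in all and kinesin medians of -0.16 to -0.09. Signs of uncalled genes near 0 turned there, in ranges of -0.0656 to 0.0223 for kif2c, -0.0980 to 0.0112 for kif14 and -0.133 to 0.0139 for kif2a. The cause of these shifts was not tested. In fits that left out an array, that group had 3 arrays.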
